A study of Mus musculus with 84 samples.

Results

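The genes described here encode proteins that release, take up or carry fatty acids: lipoprotein lipase (Lpl), the fatty acid translocase Cd36 and the fatty acid binding proteins Fabp1, Fabp2, Fabp3, Fabp4, Fabp5 and Fabp7. They were chosen by name, 8 genes of the 27845 gene names on the array, and were measured by 13 of its 41174 probes. The samples were liver and inguinal adipose tissue (IAT) of male db/db mice, strain BKS Cg-m+/+ Leprdb/J, obtained at 8 weeks of age and lacking a working leptin receptor. Mice received rosiglitazone (RSG) or S, a compound that the labels give only by this letter, by mouth for 18 days at 28, 84 or 280 µmol/kg, with 6 mice for each compound, dose and tissue. For each tissue, RNA of 6 control db/db mice was pooled, which by the methods received the vehicle and no compound and are called untreated here. Each of the 72 treated samples was set against its tissue's pool on 2 arrays, the dyes swapped on the second. The pool served as 1 control sample, so no test below holds the spread between untreated mice. All mice, treated and untreated, carried the db mutation, so the ratios compare treated with untreated diabetic mice and not with lean ones. The groups are called by compound and dose, such as RSG 28 or S 280, and a log2 ratio is that of a treated mouse over the pool.

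In fat, LPL on the capillary wall splits the triglyceride of circulating lipoproteins, CD36 helps the released fatty acids to enter the cell, and small binding proteins of the FABP family carry them through the cytosol. FABP1 is the abundant form of hepatocytes and FABP2 that of the gut lining, while FABP3 is known from heart and skeletal muscle, FABP4 from adipocytes and macrophages, FABP5 from skin, fat and macrophages, and FABP7 from brain. RSG is a thiazolidinedione that activates PPARγ, the nuclear receptor which drives fat cell differentiation, and Fabp4, Lpl and Cd36 are known targets of that receptor.

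The treated channel was well above background on 61.8% to 78.2% of probes in IAT arrays and on 43.4% to 65.8% in liver arrays, and after the filter on dim probes 30795 probes were tested in IAT, 25254 in liver and 24744 in both. All 8 genes passed that filter in each tissue on at least 1 probe. The markers bore the tissue labels out: in IAT the adipocyte genes Adipoq and Plin1 were well above background on all 12 arrays of each group. In liver all 14 hepatocyte genes on the array counted as above background in each group, though 8 to 11 were called lower than the pool and 1 or 2 higher. Genes of other cells were detected in IAT too, where all 14 skeletal muscle genes listed were above background, with summed levels of 74.7 to 1010 in treated mice, against 709 to 983 in the pool. A spread of this kind can come from fewer cells of a type or from less RNA per cell, which bulk tissue cannot tell apart. Each group lay on 3 or 4 slides, none of them shared with another group, and was scanned on 1 to 3 days. A pair of mice stood apart, IAT RSG 28 mouse 5 and liver RSG 280 mouse 2, and leaving both out changed 1 call among the 8 genes, given with Fabp4 in IAT.

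Promoter sequence is shown for the 2 genes whose window held the motif searched for, because PPARγ binds DNA as a dimer on a pair of half-sites (AGGTCA) that are 1 base apart. RefSeq windows of build GRCm38.p6, 250 bases before to 50 bases after the gene start, were held for 5 of the 8 genes. The motif AGGTCANAGGTCA, on either strand and with up to 2 mismatches, was found once in Cd36 and once in Fabp1 and not in Fabp2, Fabp3 or Fabp7. It was found in 3.86% of all 32851 such windows, and the single half-site AGGTCA in 16.3% of all windows and in 3 of these 5 (Cd36, Fabp1 and Fabp7), of which one in Fabp1 overlaps its full match. The 250 bases before the start are printed on the strand of the gene, with the match in capitals, for Cd36 at chr5:17835897-17836146 (minus strand) and for Fabp1 at chr6:71199629-71199878 (plus strand).
Cd36: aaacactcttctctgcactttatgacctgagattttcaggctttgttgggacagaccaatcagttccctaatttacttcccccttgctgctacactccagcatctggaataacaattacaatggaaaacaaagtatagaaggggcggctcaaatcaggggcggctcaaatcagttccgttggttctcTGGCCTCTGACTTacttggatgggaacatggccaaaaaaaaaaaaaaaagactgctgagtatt
Fabp1: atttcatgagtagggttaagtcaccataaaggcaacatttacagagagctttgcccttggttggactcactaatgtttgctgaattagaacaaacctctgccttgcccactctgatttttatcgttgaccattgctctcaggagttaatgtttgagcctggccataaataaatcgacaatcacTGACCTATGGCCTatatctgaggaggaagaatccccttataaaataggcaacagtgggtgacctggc
The Cd36 letters, TGGCCTCTGACTT, lie at bases -63 to -51 from the start with 2 mismatches, and the Fabp1 letters, TGACCTATGGCCT, at -67 to -55 with 1 mismatch, both in the reverse orientation. A match of letters is not a measured binding site. The ratios of both genes follow below: in liver the mean of every treated group lay above the pool for both, and in IAT Cd36 was not called in any group.

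In liver, nearly the whole set was higher in treated db/db mice than in untreated ones. In the fit with limma, 8 of 8 genes were higher at RSG 28, 7 at RSG 84 and 7 at RSG 280, where Fabp2 was the exception at both upper doses. The same direction was called for 25.5%, 24.6% and 22.1% of all probes at these RSG doses. After S, 7 of 8 genes were higher at each of 28, 84 and 280 µmol/kg, with Fabp7 the exception, against 23.7%, 24.5% and 28.8% of all probes. No gene of the set was lower in any liver group. The median log2 ratio of the set was 1.10, 1.19 and 0.76 over the RSG doses and 0.96, 1.55 and 2.60 over the S doses, while that of all probes tested lay between -0.05 and -0.02. These counts and medians include Fabp5, whose pool channel lay near background in liver. It passed the filter on dim probes only through the treated channel, so its calls as higher are no separate support.

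**Figure D1:**
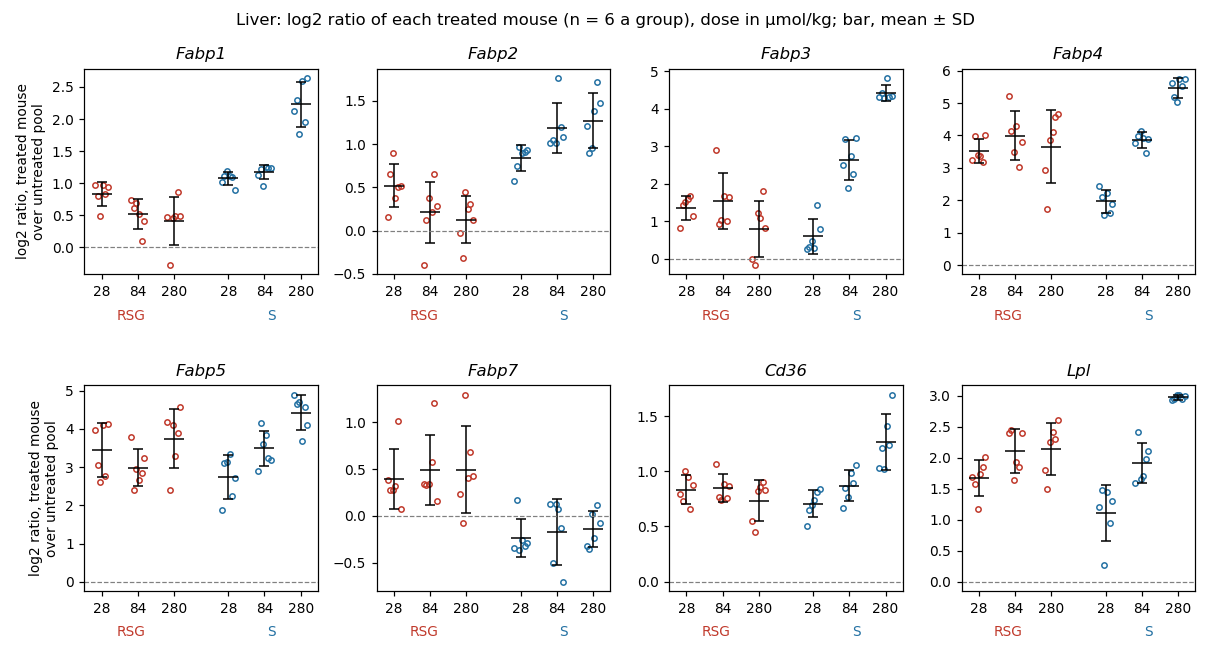
Log2 ratio of each treated liver over the pool (y axis) for the 8 genes, by compound and dose in µmol/kg (x axis, RSG left of S). Points are single mice and bars the mean ± SD of 6 mice; Fabp4 reaches a mean of 5.47 and Fabp3 4.41 at S 280, while the mean of Fabp7 lies above 0 after RSG and below 0 after S.

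Lpl encodes the lipase that frees fatty acids from circulating triglyceride, and its probe lies at chr8:71830140-71830199 (plus strand, build mm8, as are all probe positions here). Its log2 ratio in liver had a lowest, median and highest value of 1.18, 1.71 and 2.02 at RSG 28, of 1.63, 2.17 and 2.44 at RSG 84 and of 1.49, 2.27 and 2.62 at RSG 280. After S the same 3 values were 0.27, 1.26 and 1.48 at 28 µmol/kg, 1.59, 1.84 and 2.42 at 84 µmol/kg, and 2.93, 2.98 and 3.02 at 280 µmol/kg. All 36 livers thus lay above the pool, and the 6 livers of S 280 lay above every liver of the other 5 groups. The mean at S 280 was 2.98 ± 0.04 (SD, n = 6), a 7.87-fold level (adjusted p = 9.6e-19), and at RSG 280 it was 2.15 ± 0.42, a 4.42-fold level (adjusted p = 1.6e-14). On the S 280 arrays the mouse signal ran from 3760 to 7550 and the pool signal from 493 to 958, at 11.3% to 14.5% of the mouse signal. The SD of 0.04 is thus that of ratios whose pool channel rose with the mouse channel, as given below with Fabp3. A second Lpl probe gave larger ratios in every liver group, up to 4.20 at S 280 and 2.80 at RSG 280.

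Cd36, the membrane protein that binds and takes up long-chain fatty acids, rose by a smaller and more even amount (probe at chr5:17295116-17297548, minus strand, across a splice junction as the design places it). In RSG livers its mean log2 ratio was 0.83 ± 0.13, 0.85 ± 0.12 and 0.73 ± 0.19 (SD, n = 6) over the 3 doses. In S livers it was 0.71 ± 0.12, 0.87 ± 0.14 and 1.27 ± 0.26, which is a 2.41-fold level at the top dose. No liver lay below the pool, the lowest being an RSG 280 mouse at 0.45. The second Cd36 probe gave 0.66 at RSG 280 and 1.20 at S 280.

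Fabp4, the adipocyte form, had the largest mean ratio within arrays of the set at S 280 (probe at chr3:10190974-10191033, minus strand). Over the pool of the other arrays Fabp3 stood higher, as given below, and the ratio of Fabp5 rests on a pool near background. After RSG its log2 ratio in single livers ran over a lowest, median and highest of 3.18, 3.39 and 4.00 at 28 µmol/kg, 3.02, 3.97 and 5.23 at 84 µmol/kg, and 1.74, 3.98 and 4.67 at 280 µmol/kg. After S it ran over 1.54, 2.00 and 2.43, then 3.45, 3.90 and 4.13, then 5.03, 5.57 and 5.75. The S groups did not overlap one another, while the 3 RSG groups did. Here and for the other genes such overlap only describes the values, as no share of all probes is given for it. The means correspond to 11.5-, 15.9- and 12.5-fold levels over the RSG doses and to 3.91-, 14.5- and 44.4-fold levels over the S doses. Both other Fabp4 probes gave means between 1.85 and 5.60 in liver and the same calls against the pool.

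The liver Fabp4 was read beside markers of the cells that carry it. Of 11 adipocyte genes tested in liver 7 or 8 were higher and 1 or 2 lower in each group. Summed levels of the adipocyte genes were 79.3 to 339 in treated livers, against 36.4 to 39.9 in the pool. The adipocyte genes Cfd and Cidec were above background on all 12 arrays of each group, with mean log2 ratios of 4.99 to 7.05 and 3.42 to 4.34. Adipoq had mean log2 ratios of -0.52 to -1.09 and was above background on 3 to 6 of 12 arrays of a group, and Lep, Adrb3 and Acvr1c were not above background. Of 17 macrophage genes tested 8, 12 and 7 were higher and 2, 1 and 1 lower over the RSG doses. Over the S doses 2, 1 and 3 were higher and 3 lower at each. Their summed levels were 83.1 to 180 in RSG livers and 76.2 to 157 in S livers, against 88.2 to 107 in the pool. At S 280, where Fabp4 was highest, the median log2 ratio of the macrophage genes was -0.01. The part of adipocyte or macrophage RNA in the Fabp4 ratios was not tested.

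Fabp5, the epidermal form, was measured by 1 probe ( chr3:9998905-9998964, plus strand), and was too dim in the untreated liver for a fold change. The pool channel was not well above background on any array of 5 liver groups and on 1 of 12 at S 280, while the treated channel was on 8 to 12 of 12. On the deposited signal, against the lowest that counted as detected, Fabp5 was at least 2.78-, 2.32- and 3.41-fold higher after RSG 28, 84 and 280. After S 28 and S 84 it was at least 2-fold and 3.71-fold higher. At S 280, where the pool channel passed on 1 of 12 arrays, the measured mean log2 ratio was 4.43 ± 0.46 (SD, n = 6) and rests on a pool signal near background. The bounds set the mean of the treated mice against, on each array, the higher of the pool's own signal and the dimmest detected probe. With background corrected another way (normexp with an offset of 50, then loess) the log2 ratios came to 0.54, 0.63 and 0.76 after RSG and 0.30, 0.53 and 1.15 after S, all still higher. In the 5 groups with a bound these ratios were smaller than the bound. The deposited pool signal had medians of 6.59 to 10.4 in these groups, and an offset of 50 in both channels shrinks the ratio of so dim a probe. The normexp ratios thus cannot test the bounds, which are given for the deposited background correction. Samples labelled as technical repeats varied as much as mice did for Fabp5, with an SD of 0.78 against 0.70 at RSG 28 and of 0.61 against 0.58 at S 28.

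Fabp1, the liver form, was higher after S at each dose (probe at chr6:71134491-71134550, plus strand). Its log2 ratio averaged 1.07 ± 0.10, 1.17 ± 0.11 and 2.23 ± 0.35 (SD, n = 6) over the S doses, and 6 of 6 livers lay above the pool at each. After RSG it averaged 0.83 ± 0.18, 0.51 ± 0.23 and 0.42 ± 0.37, and 1 of 6 livers at RSG 280 lay below the pool at -0.28. The RSG values depended on the dye: with the mouse RNA in Cy5 they were 1.37, 1.07 and 0.95, and with it in Cy3 they were 0.29, -0.05 and -0.12. The treated channel was saturated on 5 of 12 arrays at S 280 and 2 of 12 at S 28. On the scale of single-channel levels the S 280 livers stood 1.47 above the pool of the other 60 arrays, while the pool's own Fabp1 level on the S 280 arrays was 0.77 lower than on the others, so part of the ratio of 2.23 lay in the pool channel.

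Fabp2, the intestinal form, was found in liver as well and separated the compounds (probe at chr3:122891380-122891439, plus strand). After S its log2 ratio had a lowest, median and highest of 0.57, 0.90 and 0.97 at 28 µmol/kg, 1.01, 1.07 and 1.77 at 84 µmol/kg, and 0.90, 1.29 and 1.72 at 280 µmol/kg. After RSG the mean was 0.52 ± 0.25 at 28 µmol/kg, 0.21 ± 0.35 at 84 µmol/kg (adjusted p = 0.11) and 0.13 ± 0.27 at 280 µmol/kg (adjusted p = 0.35). Every S liver was above the pool, and 9 of 12 livers were at the upper 2 RSG doses. Of 9 enterocyte genes listed 2 or 3 were above background in the treated livers, and the gut genes Vil1, Lct and Cdx2 were not. The summed levels of the 9 genes were 3.45 to 19.5 in RSG livers and 3.55 to 71.1 in S livers, against 8.57 to 10.6 in the pool. Of the 3 that were tested, 1 was higher at S 28 and at S 84 and none in the other groups. Lower were 2 at each RSG dose and 1, 1 and 3 over the S doses. At S 280 the median log2 ratio of these enterocyte genes was -0.68. Their part in the Fabp2 ratios was not tested.

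Fabp3, the heart and muscle form, moved most between doses of S (probe at chr4:129817668-129817727, plus strand). Its log2 ratio had a lowest, median and highest of 0.27, 0.40 and 1.44 at S 28, of 1.90, 2.61 and 3.21 at S 84 and of 4.29, 4.32 and 4.82 at S 280, with no overlap between neighbouring doses. After RSG the same 3 values were 0.83, 1.47 and 1.68 at 28 µmol/kg, 0.93, 1.35 and 2.90 at 84 µmol/kg, and -0.16, 0.96 and 1.79 at 280 µmol/kg, so the RSG groups overlapped throughout. The mean at S 280 was 4.41 ± 0.20 (SD, n = 6), a 21.3-fold level. This SD is that of ratios whose pool channel rose with the mouse channel, as given below. At S 28 the mean was 0.60 ± 0.46 (adjusted p = 0.019), a call that was lost when S 28 mouse 5 or mouse 6 was left out. Of 10 skeletal muscle genes tested in liver 8 or 9 were lower in each group and none was higher, with summed levels of 2.65 to 7.69 in treated livers, against 4.58 to 6.31 in the pool.

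The ratio at S 280 understated the gap between the channels of different arrays, because the pool itself read high there. The Fabp3 signal of the treated livers on the 12 arrays of S 280 had a median 182-fold that of the pool on the other 60 liver arrays. On the same 12 arrays the pool channel ran from 518 to 4420 with a median of 1720, against 130 to 292 with a median of 182 on the other 60, a 9.43-fold difference in what the labels give as the same pool. That pool signal was 2.66% to 5.73% of the mouse signal on the same array. On the log2 level scale of the main probes, the pool was 2.98 higher on the S 280 arrays for Fabp3, 1.00 for Lpl, 0.69 for Fabp4 and 0.13 for Fabp5, and the shift was between -0.04 and -0.01 for Cd36, Fabp2 and Fabp7. The shift was not the same on other probes of a gene: it was 0.15 on the second Lpl probe and 0.87 and 0.17 on the other Fabp4 probes. Why the pool channel differed was not tested. On the main probes, mouse over other arrays' pool then gave 7.41 for Fabp3, 6.17 for Fabp4 and 3.99 for Lpl, against ratios within the arrays of 4.41, 5.47 and 2.98.

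**Figure D2:**
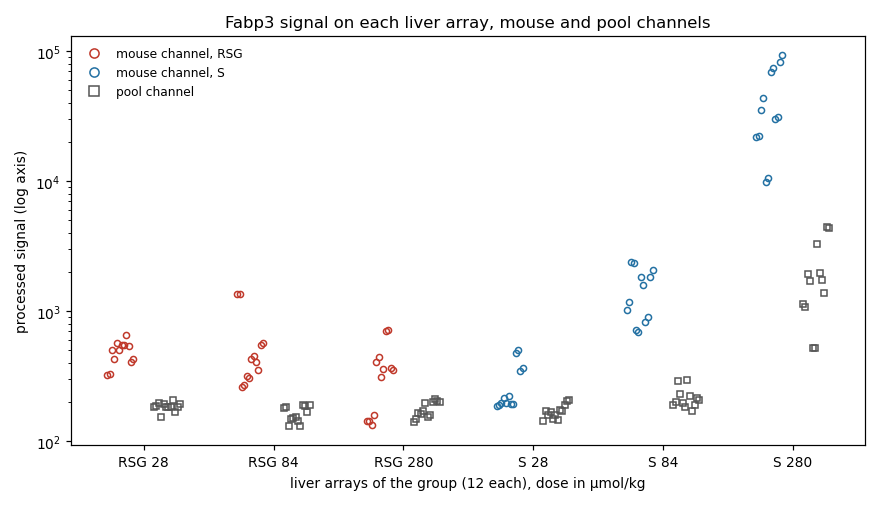
Processed Fabp3 signal (y axis, log scale) of the mouse and the pool channel on the 12 liver arrays of each group (x axis). On the S 280 arrays the pool channel has a median of 1720, against 182 on the other liver arrays, and the mouse channel is higher still.

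Fabp7, the brain form, was the one gene of the set that was higher after RSG and not after S (probe at chr10:57476648-57476707, plus strand). Its log2 ratio averaged 0.39 ± 0.32, 0.49 ± 0.37 and 0.49 ± 0.47 (SD, n = 6) over the RSG doses, with adjusted p-values of 0.012, 0.0018 and 0.0022. After S it averaged -0.23 ± 0.20, -0.17 ± 0.36 and -0.14 ± 0.19, with adjusted p-values of 0.14, 0.28 and 0.34. At RSG 28 the highest mouse, mouse 5 at 1.01, stood apart from the other 5, and the call was lost without it. With the mouse RNA in Cy3 alone the S values were -0.41, -0.35 and -0.32 and each passed the test as lower, while the RSG 28 and RSG 84 values, 0.20 and 0.29, did not pass. Of 17 macrophage genes tested in the same livers 8, 12 and 7 were higher and 2, 1 and 1 lower over the RSG doses. Over the S doses 2, 1 and 3 were higher and 3 lower at each. The same direction, higher, was called for 25.5%, 24.6% and 22.1% of all probes after RSG and 23.7%, 24.5% and 28.8% after S. Between the compounds, RSG minus S, 0, 0 and 2 of the 17 were higher over the doses and 0 lower. The Kupffer cell gene Cd5l had means of 0.42 to 0.59 after RSG and -0.12 to 0.15 after S. The macrophage gene Cd68 had means of 0.42, 0.53 and 0.42 over the RSG doses and 0.13, 0.22 and 0.44 over the S doses. The part of macrophage RNA in the Fabp7 ratios was not tested.

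Compared at equal molar doses in liver, RSG and S differed mainly at 280 µmol/kg. There 7 of 8 genes differed, 6 lower after RSG and 1 higher, against 28.6% of all probes in either direction. The log2 difference, RSG minus S, was -3.62 for Fabp3 (95% interval -4.23 to -3.01, adjusted p = 3.2e-10), -1.83 for Fabp4 (-2.52 to -1.13, adjusted p = 0.00012) and -1.81 for Fabp1 (-2.10 to -1.53, adjusted p = 6e-11). It was -1.15 for Fabp2 (-1.46 to -0.83), -0.83 for Lpl (-1.22 to -0.44) and -0.53 for Cd36 (-0.73 to -0.34). Fabp7 was 0.64 higher after RSG (0.26 to 1.02, adjusted p = 0.0094), and Fabp5 had a difference of -0.69 (-1.36 to -0.02, adjusted p = 0.12), which passed with normexp at -0.39 (adjusted p = 0.023). Differences between the mouse channels alone were -6.64 for Fabp3, -2.45 for Fabp4, -1.66 for Lpl and -0.90 for Fabp1 on the main probes, whose pool levels differed on the S 280 arrays. On the other probes they were -2.14 and -2.07 for Fabp4 and -1.57 for Lpl.

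At the lower doses fewer genes differed, and not in 1 direction. At 28 µmol/kg 1 of 8 did, against 0.915% of all probes: Fabp4 was 1.56 higher after RSG (0.87 to 2.26, adjusted p = 0.02), and the 6 RSG livers, the lowest at 3.18, did not overlap the 6 S livers, the highest at 2.43. At 84 µmol/kg 2 of 8 did, against 1.86% of all probes: Fabp2 had a log2 difference of -0.98 (adjusted p = 0.00079) and Fabp1 one of -0.66 (adjusted p = 0.009), both lower after RSG. Fabp3, with a difference of -1.09 (-1.71 to -0.48), missed the threshold there at an adjusted p of 0.051. For Fabp4 the 2 compounds gave a difference of 0.14 at 84 µmol/kg (-0.56 to 0.83), so its RSG minus S difference was positive at the lowest dose and negative at the highest.

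Scan day bore on these comparisons. With scan day as a fixed block, 4 of the 7 calls at 280 µmol/kg were kept (Fabp1, Fabp2, Fabp3 and Cd36), those of Fabp4 (-0.90, adjusted p = 0.21), Lpl (-0.56, adjusted p = 0.22) and Fabp7 (0.56, adjusted p = 0.23) were lost, and 0 calls remained at 28 and at 84 µmol/kg. On the single day that held mice of both groups at 280 µmol/kg, 2 of each, the RSG minus S difference was -3.00 for Fabp3, -1.62 for Fabp1, -1.39 for Fabp2, -1.01 for Fabp4, -0.60 for Cd36 and -0.51 for Lpl. No day held mice of both compounds at 28 or 84 µmol/kg. Liver Fabp4 at 28 µmol/kg was also lost on leaving out RSG mouse 2, S mouse 3 or S mouse 5.

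**Figure D3:**
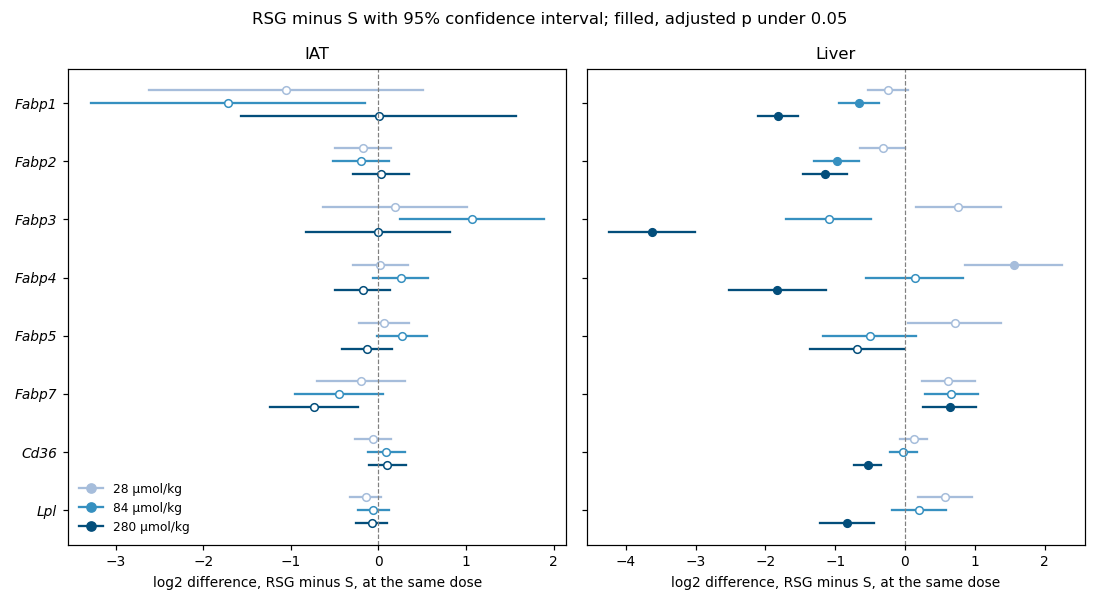
Difference of mean log2 ratios, RSG minus S, with its 95% interval (x axis) for each gene (y axis) at 28, 84 and 280 µmol/kg, in IAT and in liver. Filled points have an adjusted p below 0.05: 7 of 8 genes in liver at 280 µmol/kg and none in IAT at any dose.

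The dose mattered for S in liver and gave no call for RSG. Between S 280 and S 28, 7 of 8 genes were higher, all but Fabp7, against 13% of all probes higher. The log2 differences were 3.82 for Fabp3, 3.51 for Fabp4, 1.87 for Lpl, 1.70 for Fabp5, 1.16 for Fabp1, 0.56 for Cd36 and 0.43 for Fabp2 (adjusted p = 0.034). That of Fabp5 rests on a pool near background, and that of Fabp1 on a mouse channel saturated on 5 of 12 arrays at S 280 and 2 of 12 at S 28. With scan day as a fixed block Lpl, Fabp1, Fabp3 and Fabp4 kept their call. Between S 84 and S 28, 2 of 8 were higher, Fabp3 by 2.03 (adjusted p = 0.0013) and Fabp4 by 1.89 (adjusted p = 0.026), against 0.0198% of all probes, which is 5 probes in all. On the day shared by 2 mice of S 84 and 6 of S 28 these differences were 2.25 and 1.91, yet neither passed with scan day as a fixed block (adjusted p = 0.14 and 0.26), and the Fabp4 call was lost on leaving out any 1 of 8 of the 12 mice.

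For RSG in liver, 0 of 8 genes were called between 84 and 28 µmol/kg, where 0% of all probes were, and 0 of 8 between 280 and 28 µmol/kg, where 0.0119% were. At an unadjusted p below 0.05 limma gave 2 of 8 for the first comparison and 3 of 8 for the second, and 1059 and 3647 of 25254 probes. The largest of the 8 differences between 280 and 28 µmol/kg was that of Fabp3, -0.57 (-1.18 to 0.04), and the next were Lpl at 0.47 (0.08 to 0.86) and Fabp1 at -0.42 (-0.70 to -0.13). On the shared day, with 2 mice of each, these were -0.10, 0.52 and -0.21, while Fabp4 had 1.03 and Fabp5 0.78 there. Over all mice Fabp4 had a difference of 0.12 (-0.58 to 0.81) between these doses.

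In IAT the set did not move as one. Over RSG 28, 84 and 280, 3, 2 and 5 of 8 genes differed from the pool, against 46.9%, 65.7% and 67% of all probes in either direction. Over S 28, 84 and 280, 4, 5 and 6 of 8 differed, against 47.6%, 55.7% and 74.7%. The counts of genes were close to or below those shares. Fabp5 was higher and Fabp2 lower in all 6 groups. Lpl and Cd36 were not called in any IAT group, and Fabp4 was called at the top dose of each compound only.

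**Figure D4:**
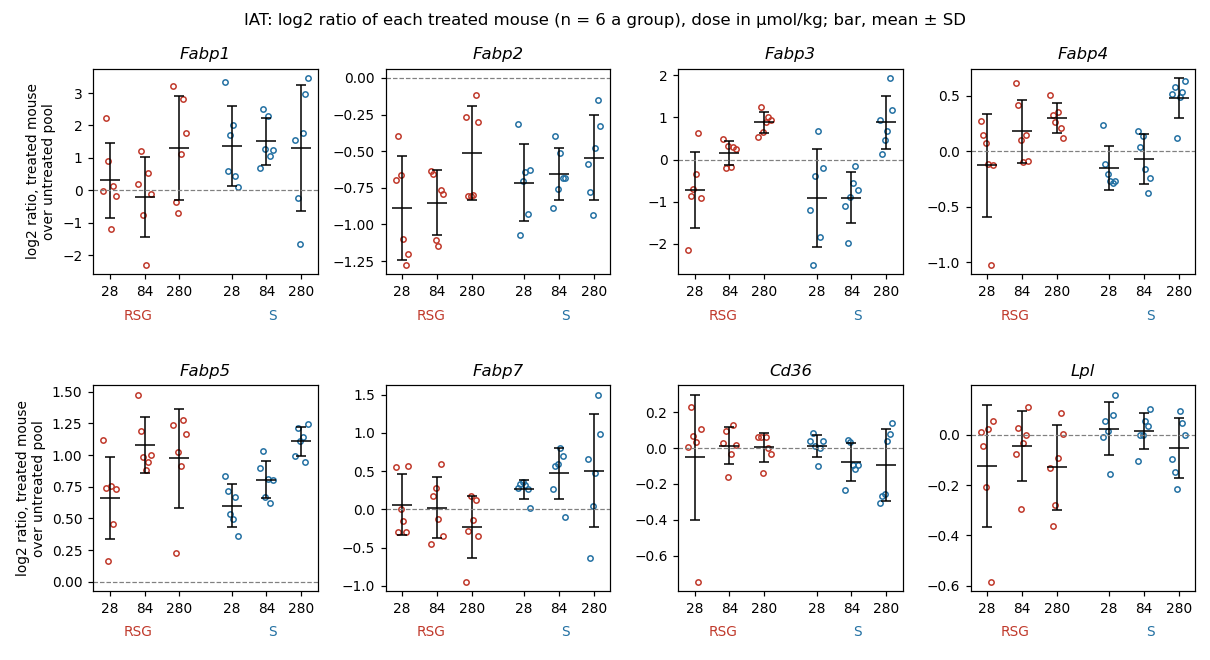
Log2 ratio of each treated IAT over the pool (y axis) for the 8 genes, by compound and dose in µmol/kg (x axis, RSG left of S). Points are single mice and bars the mean ± SD of 6 mice; Fabp5 lies above 0 in all 36 mice and Fabp2 below 0 in all 36, while Fabp1 spreads widest.

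Lpl in IAT had mean log2 ratios of -0.12, -0.05 and -0.13 over the RSG doses and 0.02, 0.01 and -0.05 over the S doses, with SDs of 0.07 to 0.24. At RSG 280, where 2 of 6 mice lay above the pool, the mean missed the threshold (adjusted p = 0.062), and the 95% interval at S 280 was -0.18 to 0.07. With the mouse RNA in Cy3 only, Lpl was called lower at all 3 RSG doses and at S 280, with values of -0.21 to -0.33. The second Lpl probe was saturated in the red channel on 11 or 12 of 12 arrays of each IAT group, so only the main probe, which was never saturated, is used for IAT. Cd36 had means between -0.10 and 0.01, and at RSG 280 its interval was -0.14 to 0.15. RSG 28 mouse 5 stood apart from the rest of its group in Cd36, at -0.75.

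Fabp4 in IAT rose slightly at the top dose. Its log2 ratio at S 280 had a lowest, median and highest of 0.12, 0.53 and 0.63, a mean 1.39-fold level (adjusted p = 0.00021), and at RSG 280 one of 0.12, 0.29 and 0.51, a 1.23-fold level (adjusted p = 0.016), a call lost without mouse 1. The other 4 groups had means of -0.15 to 0.18 and were not called. The 2 other Fabp4 probes were saturated in the red channel on 11 or 12 of 12 arrays of each IAT group and gave 0.24 and 0.18 at RSG 280 and 0.30 and 0.29 at S 280, all called higher. Where a channel is saturated its value is only a lower limit.

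Fabp5 was the one gene of the set higher in every IAT sample. Its log2 ratio averaged 0.66 ± 0.32, 1.08 ± 0.22 and 0.97 ± 0.39 (SD, n = 6) over the RSG doses and 0.60 ± 0.17, 0.81 ± 0.15 and 1.11 ± 0.12 over the S doses. The lowest of the 36 values was 0.16 and the highest 1.48, and the adjusted p was at most 1.2e-05 in each group. Unlike in liver, both channels were well above background on all arrays.

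Fabp2 was lower in every IAT sample, at means of -0.89, -0.85 and -0.51 over the RSG doses and -0.72, -0.65 and -0.54 over the S doses, all called. The main probe was well above background in both channels on all arrays, while the second Fabp2 probe was above background on at most 1 of 12 treated channels of a group and was not tested. Of 9 enterocyte markers 6 were lower in each of the 6 groups, while 1, 2 and 2 were higher over the doses of each compound. Their summed levels were 0.716 to 1.19 in treated IAT, against 5.05 to 5.81 in the pool. Cdx2 was not above background in any group. The part of gut-type RNA in the pool in the Fabp2 ratios was not tested.

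Fabp3 in IAT changed with dose. Its log2 ratio had a lowest, median and highest of -2.14, -0.78 and 0.64 at RSG 28, of -0.21, 0.28 and 0.48 at RSG 84 and of 0.53, 0.92 and 1.24 at RSG 280. After S the values were -2.51, -0.80 and 0.69 at 28 µmol/kg, -1.97, -0.81 and -0.15 at 84 µmol/kg, and 0.12, 0.81 and 1.94 at 280 µmol/kg. All 12 mice of the top doses lay above the pool, and 10 of 12 of the lowest doses below it. The means at the top dose were 0.88 ± 0.26 after RSG (adjusted p = 0.0074) and 0.89 ± 0.63 after S (adjusted p = 0.0061). At the lowest dose they were -0.72 ± 0.90 after RSG (adjusted p = 0.038) and -0.91 ± 1.17 after S (adjusted p = 0.0092), and these calls were lost on leaving out RSG 28 mouse 1, 2, 3 or 6, or S 28 mouse 2 or 5. At S 84 the call (adjusted p = 0.0081) was lost without mouse 2.

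Skeletal muscle and brown adipocyte genes, in both of which Fabp3 is known to be made, moved in the same samples. Of 14 muscle genes 8, 10 and 10 were lower over the RSG doses and 7, 7 and 13 over the S doses, and none was higher. The muscle actin Acta1 averaged -0.81, -1.11 and -1.12 after RSG and -0.83, -0.60 and -2.38 after S. In RSG 28 mouse 1, with the lowest Fabp3 of its group at -2.14, Acta1 was -3.42, and in mouse 5, with the highest at 0.64, it was 0.78. The brown adipocyte gene Ucp1 averaged 1.52, 2.82 and 3.27 after RSG and 1.23, 1.96 and 3.36 after S, and 9 of 10 brown adipocyte genes were higher at each top dose. At S 280 Fabp3 was thus above the pool while Acta1 was at its lowest mean and Ucp1 at its highest, and the part of either cell type was not tested.

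Fabp1 had the widest spread of the set in IAT. Its mean log2 ratio was 0.31, -0.21 and 1.31 over the RSG doses and 1.36, 1.51 and 1.31 over the S doses, with SDs of 0.73 to 1.95. Single mice ran from -2.31 to 3.23 after RSG and from -1.67 to 3.47 after S. The calls as higher at RSG 280 (adjusted p = 0.034), S 28 (adjusted p = 0.038), S 84 (adjusted p = 0.019) and S 280 (adjusted p = 0.03) were each lost on leaving out a single mouse, for S 84 mouse 2 or mouse 4. Albumin (Alb), the hepatocyte secretory product, varied in the same samples: in S 28 mouse 1 Fabp1 was 3.34 and Alb 2.05, and in RSG 84 mouse 4 Fabp1 was -2.31 and Alb -1.47. The group means of Alb were -0.13, -0.52 and 0.16 after RSG and 0.43, 0.42 and -0.36 after S, so at S 280 the 2 genes differed in sign. Of 13 hepatocyte genes tested 0, 1 and 2 were higher and 5, 7 and 4 lower over the RSG doses. Over the S doses 0, 3 and 3 were higher and 3, 1 and 4 lower. Of 14 hepatocyte genes 9 to 12 were above background in IAT, the liver gene Ttr not among them, with summed levels of 45 to 186 in treated IAT, against 169 to 383 in the pool, and their part in the Fabp1 ratios was not tested.

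Fabp7 in IAT averaged 0.06, 0.02 and -0.24 over the RSG doses, none called, and 0.26, 0.47 and 0.50 over the S doses. It was called higher at S 84 (adjusted p = 0.023) and S 280 (adjusted p = 0.011), where 5 of 6 mice lay above the pool in each group. The S 84 call was lost without mouse 2, 3, 4 or 5, and the S 280 call without mouse 5 or mouse 6. The order of the compounds in IAT was thus the opposite of that in liver, where RSG gave the higher mean, but in IAT their difference did not pass the test.

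No gene of the set differed between RSG and S in IAT at any dose. At 28 µmol/kg 0 of 8 were called by limma, against 0.00649% of all probes, at 84 µmol/kg 0 of 8 against 2.15%, and at 280 µmol/kg 0 of 8 against 1.57%. At an unadjusted p below 0.05 limma gave 0, 2 and 1 of 8, and 1287, 4560 and 6354 of 30795 probes. At 84 µmol/kg the genes were Fabp1, with RSG minus S of -1.72 (-3.28 to -0.15, adjusted p = 0.28), and Fabp3, with 1.07 (0.24 to 1.89, adjusted p = 0.17). At 280 µmol/kg it was Fabp7, with -0.74 (-1.24 to -0.24, adjusted p = 0.1), which passed without S 280 mouse 2. For the others at 280 µmol/kg the intervals were narrow for Lpl (-0.25 to 0.10), Cd36 (-0.11 to 0.31) and Fabp5 (-0.42 to 0.15) and wide for Fabp1 (-1.56 to 1.57) and Fabp3 (-0.83 to 0.81).

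Between doses in IAT, 0 of 8 genes were called from RSG 84 against RSG 28, where 10.5% of all probes were, and 0 of 8 from S 84 against S 28, where 0.0909% were. At an unadjusted p below 0.05 limma gave 2 of 8 and 0 of 8, and 7810 and 2641 of 30795 probes. Between RSG 280 and RSG 28, 2 of 8 were higher, against 25.4% of all probes in either direction: Fabp3 by 1.60 (adjusted p = 0.0033) and Fabp4 by 0.42 (adjusted p = 0.038). The Fabp4 difference was 0.25 (adjusted p = 0.15) without RSG 28 mouse 5, whose Fabp4 ratio was -1.02. Between S 280 and S 28, 3 of 8 were higher, against 43.5% of all probes: Fabp3 by 1.80 (adjusted p = 0.00052), Fabp4 by 0.63 (adjusted p = 0.0013) and Fabp5 by 0.51 (adjusted p = 0.0039). On the scan day shared by 4 mice each of RSG 84 and RSG 28 the difference was 0.43 for Fabp3, 0.61 for Fabp5 and 0.56 for Fabp4, and on that shared by 6 mice of S 84 and 2 of S 28 it was 0.13 for Fabp3.

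The untreated tissues differed widely in all 8 genes. On the scale of log2 signal minus the 75th percentile of the channel, each probe set only against itself, the IAT pool exceeded the liver pool by 8.56 for Fabp4, 7.71 for Lpl, 4.81 for Fabp3 and 2.69 for Cd36. It was higher for Fabp5 too, by an amount that the liver pool at background does not give. It lay below the liver pool for Fabp1, with a difference of -10.1, for Fabp2 with -7.97 and for Fabp7 with -3.71. Another scaling of the channels (Aquantile) gave 9.19 for Fabp4, 3.69 for Cd36 and -9.37 for Fabp1 and turned none of the 8 round. On the main probes treated livers lay below IAT for the adipose genes: mean Fabp4 levels were 5.65 to 6.23 in treated IAT and -0.97 to 3.31 in treated livers, and mean Lpl levels were 6.51 to 6.73 in treated IAT and -0.35 to 2.81 in treated livers. On the other Fabp4 probes the order turned at S 280, with mean levels of 7.73 and 7.95 in IAT and of 8.78 and 8.54 in liver, but these probes were saturated in the red channel on 11 or 12 of 12 IAT arrays. At S 280 the mean level of Fabp3 was 4.48 ± 0.67 in IAT and 5.64 ± 1.05 in liver (SD, n = 6), and the 2 groups overlapped.

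**Figure D5:**
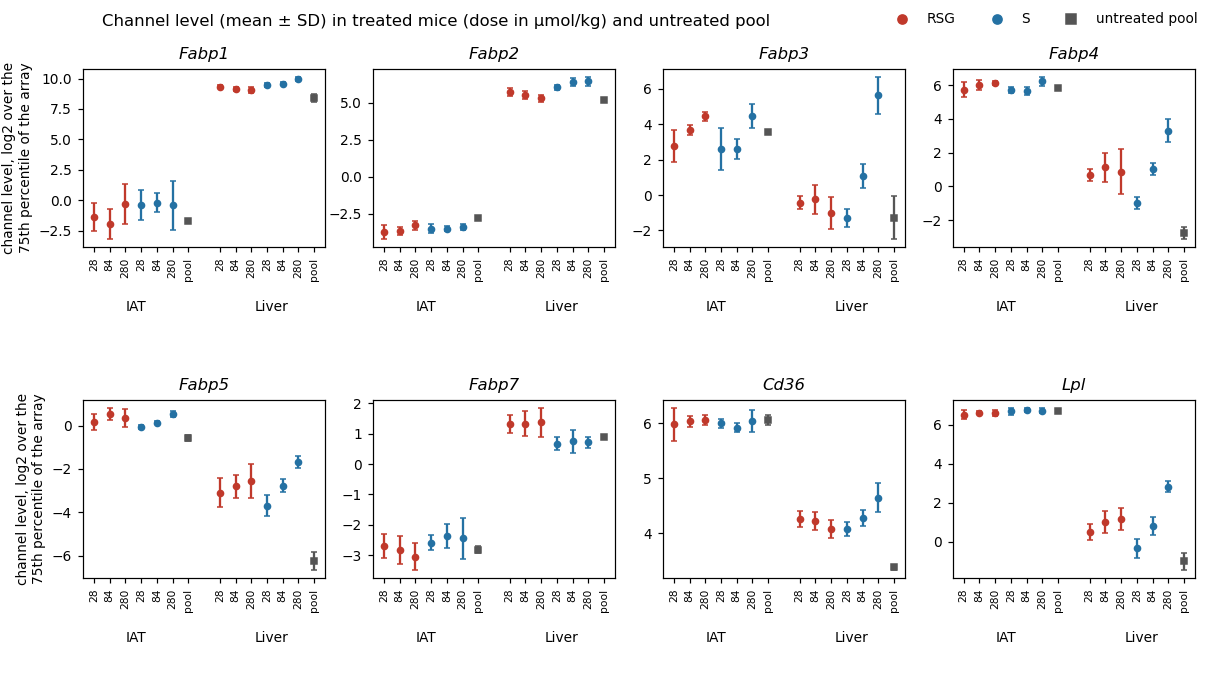
Channel level, log2 signal minus the channel's 75th percentile (y axis), of each gene's main probe in the treated groups and in the pool (x axis), IAT left and liver right. Points are means and bars SDs over 6 mice, or over all 36 samples of a tissue for the pool; on these probes Fabp4 and Lpl sit higher in IAT in every group, Fabp1 and Fabp2 in liver.

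The response relative to each tissue's own pool was smaller in IAT than in liver for most of the set. IAT minus liver, 6 of 8 genes differed at RSG 28, 6 at RSG 84 and 6 at RSG 280, against 51.9%, 61.5% and 61.5% of all probes. After S, 6 differed at 28 µmol/kg, 7 at 84 and 7 at 280, against 43.7%, 52.6% and 73.6%. Lpl, Cd36, Fabp2, Fabp4 and Fabp5 were lower in IAT in all 6 comparisons. For S 28, 84 and 280 the difference was -2.11, -3.93 and -4.99 for Fabp4, -1.09, -1.90 and -3.03 for Lpl, and -0.69, -0.95 and -1.36 for Cd36. For the RSG doses it was -3.65, -3.81 and -3.35 for Fabp4 and -1.80, -2.16 and -2.27 for Lpl. Fabp5 rests on the dim liver pool, and with normexp its difference was 0.06 to 0.27 in 5 comparisons and -0.21 at S 280, none of them called lower. The methods took both tissues from the treated mice, but the labels do not link liver and IAT samples of 1 mouse, so these tests hold no mouse block.

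Fabp3, Fabp7 and Fabp1 did not follow that order throughout. Fabp3 was lower in IAT in 5 comparisons but differed by 0.09 at RSG 280 (-0.63 to 0.81), against -3.53 at S 280. Fabp7 was lower in IAT at RSG 280, with -0.73 (adjusted p = 0.0035), and higher at S 84, with 0.64, and S 280, with 0.65 (adjusted p = 0.0076). Fabp1 was not called in any of the 6, with intervals such as -2.04 to 0.19 at S 280.

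Genes of the same pathways were read from fixed lists, against the share of all probes called in each direction. In liver 33.8%, 33.1% and 29.8% of all probes were lower over the RSG doses and 28.5%, 30.8% and 38.1% over the S doses, beside the shares of higher ones given above. In IAT 27.6%, 38.5% and 37.1% were higher and 19.3%, 27.1% and 29.8% lower over the RSG doses, and 28.5%, 33.4% and 42.7% were higher and 19.1%, 22.3% and 32% lower over the S doses.

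Of 10 further intracellular lipid carriers listed 9 were on the array and 4 were tested in liver, where 3 were higher in all 6 groups and 0 lower. Rbp7, a retinol binding protein of adipose endothelium, had log2 ratios of 1.19 to 1.90 after RSG and 1.51 to 2.37 after S, and Fabp12 had 0.73 to 0.86 after RSG and 0.54 to 1.16 after S. Rbp7 was above background on under 50% of the mouse channels at RSG 84 and RSG 280, and Fabp12 at RSG 84. In IAT 7 were tested. Rbp7 there was called higher at each RSG dose, with 0.71, 1.83 and 2.58, and after S it was -0.41, -0.41 and 1.40, all called, so RSG exceeded S by 2.25 at 84 µmol/kg (adjusted p = 4.1e-07) and by 1.18 at 280 µmol/kg (adjusted p = 0.011). Pmp2, the myelin form, and Fabp9, known from testis, were lower in all 6 IAT groups, with values of -0.64 to -1.53.

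Of 17 partners of LPL listed and tested in liver, 3, 4 and 2 were higher and 8, 10 and 9 lower over the RSG doses, and 4, 3 and 2 were higher and 8, 9 and 14 lower over the S doses. Their median log2 ratio was -0.15, -0.21 and -0.19 over the RSG doses and -0.22, -0.24 and -0.37 over the S doses. The lowest ratios at the top dose were those of Apoa5, which promotes LPL action (-1.11 at RSG 280 and -1.44 at S 280), and of hepatic lipase Lipc (-0.90 at RSG 280 and -1.33 at S 280). Those that were higher at RSG 280 were Gpihbp1, which carries LPL to the capillary surface (0.46), and Lmf1, which LPL needs to fold (0.08). At 280 µmol/kg 8 of 17 differed between the compounds: Apoc3, an inhibitor of triglyceride clearance, by 0.80, Lipc by 0.44, Gpihbp1 by 0.27, Pcsk6 by 0.16 and Lmf1 by 0.15 with RSG higher, and Vldlr by -0.75, Creb3l3 by -0.35 and Lmf2 by -0.15 with RSG lower. The list holds both helpers and inhibitors of the enzyme.

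In IAT, where Lpl itself was not called, 5, 7 and 8 of these 17 partners were higher and 4, 6 and 4 lower over the RSG doses, and 6, 6 and 8 were higher and 1, 6 and 6 lower over the S doses. Angptl8, an inhibitor of LPL, had log2 ratios of 1.37, 1.58 and 1.31 after RSG and 1.54, 1.52 and 1.60 after S. Apoc1 had 1.12 at RSG 280 and 1.04 at S 280, and Lipg, the endothelial lipase, 1.75 at RSG 280 and 1.27 at S 280. Sel1l, part of the quality control of the endoplasmic reticulum, was lower at the top doses, with -0.62 at RSG 280 and -0.68 at S 280.

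Of 18 other genes of fatty acid uptake and activation 16 were tested in liver, and 10, 10 and 11 were higher and 3 lower at each dose of RSG, and 11, 10 and 10 higher and 3 lower at each dose of S. Slc27a4, a fatty acid transport protein, had 0.79 at RSG 280 and 1.32 at S 280, the acyl-CoA synthetase Acsl1 1.11 at RSG 280 and 1.36 at S 280, and the acyl-CoA binding protein Dbi 0.71 at RSG 280 and 1.48 at S 280. Slc27a5, the bile acid and fatty acid CoA ligase of liver, and Scarb1, the HDL receptor, were lower, with -0.48 and -0.37 at RSG 280 and -1.08 and -0.78 at S 280. At 280 µmol/kg 10 of 16 differed between the compounds, 7 lower and 3 higher after RSG. The largest were Acsl3 at -1.05, Dbi at -0.77 and Slc27a5 at 0.60.

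In IAT 17 of these 18 were tested, and 5, 5 and 6 were higher and 2, 4 and 2 lower over the RSG doses, and 5, 4 and 7 higher and 3, 2 and 4 lower over the S doses. Acsl1 had 0.65, 1.19 and 1.23 after RSG and 0.58, 0.90 and 1.37 after S, and Slc27a1, the transport protein of fat and muscle, had 0.63 at RSG 280 and 0.62 at S 280. Slc27a4 and Scarb1 were higher in all 6 groups, by 0.29 to 0.80. Acsl3 was lower in all 6, with -0.38 to -0.72, the opposite of its direction in liver. None of the 17 differed between the compounds at 280 µmol/kg, the smallest adjusted p being 0.069 for Cavin1, which helps to form caveolae.

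The genes whose log2 ratios ran most like those of the set over the 36 mice of a tissue are given as a description, since mice of 1 group share a treatment. In liver, Lpl ran most like Fabp4 (Pearson r = 0.89) and Fabp4 most like Lpl (r = 0.90), so the pair headed each other's list, while Cd36 ran most like Cmtm4 (r = 0.93), Fabp1 like Ndufab1 (r = 0.97), Fabp2 like Lamb3 (r = 0.92) and Fabp7 like Cd44 (r = 0.93). Fabp3 ran most like a probe named NAP046356-1 in both tissues (r = 0.997 in IAT and 0.99 in liver). In IAT, Fabp1 ran most like Cyp4a14 (r = 0.95), with Apoa2 and Fgb, both made by hepatocytes, next at r = 0.95. In the same tissue Fabp3 came closest to Cox7a1 (r = 0.92) among named genes, Fabp4 to Blvrb (r = 0.96) and Fabp5 to Zic4 (r = 0.94), and Fabp2 had Fabp1 among its 3 (r = 0.83).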

How the data were processed

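Total RNA of each treated tissue was hybridised with the pool on 2-colour Agilent 4x44k arrays, 2 dye-swapped arrays a sample, 168 arrays of 84 samples, of which 12 were technical repeats that served only for their spread. Per the file headers, the authors' scanner software subtracted a local background and applied lowess, giving the deposited processed signal intensity of each channel and a log10 ratio of red over green for each of 45018 spots. The deposited marks for spots above background, saturated or outlying were read as given, and the deposited value table of log10 ratios was an alternative, in which 80 of 84 columns followed their own arrays most closely, 83 followed arrays of their own group and 1 was left out.

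Ratios were turned to treated over pool, converted to log2 and averaged over both arrays and over spots of a probe. Probes were kept where the mouse channel of a group, or the pool, was well above background on 50% of arrays. limma 3.58.1 (R 4.3.3) fitted the 36 mice of a tissue together, and all 72 for IAT minus liver, without a mouse block, as the labels do not say which liver and IAT come from 1 mouse, with Benjamini-Hochberg adjustment over all probes tested and a threshold of 0.05; this was tested on simulated data. The pool counted as 1 control sample, which leaves out the spread between untreated mice, and the treated samples are labelled as biological replicates. Levels are log2 signal minus the 75th percentile of the channel. A gene's main probe was the one most often above background and least often saturated. Precision is limited by the 6 mice of a group and by the 1 pool of a tissue.

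All 8 genes were described on every probe. From the other lists up to 4 genes a tissue with the smallest p at RSG 280 were named, with those against their list's majority or differing between the compounds, and the 3 genes most like each by Pearson's r. The genes and lists were chosen with earlier results of these data known. Alternatives were normexp with loess, other filters, single dyes, error weights, the mean of probes, saturated spots left out, the value table, scan day, slide or replicate as blocks, own groups only and each mouse left out. Values of a few listed genes are not reported here, though the counts of their lists include them.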

Additional observations from a re-analysis of the deposited data

Results flagged for a closer look

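In 12 of 96 gene and group combinations 1 mouse lay farther from its group than a test for outlying values allows (Dixon's test), where chance alone gives about 1 in 20. In IAT these log2 ratios were -0.75 for Cd36 and -1.02 for Fabp4 at RSG 28, both of mouse 5, 0.23 for Fabp5 at RSG 280, 0.24 for Fabp4 and 0.02 for Fabp7 at S 28, and 0.12 for Fabp4 at S 280. In liver they were 0.49 for Fabp1 and 1.01 for Fabp7 at RSG 28, -0.28 for Fabp1 at RSG 280, 0.17 for Fabp7 at S 28, 1.77 for Fabp2 at S 84 and 4.82 for Fabp3 at S 280.

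The response differed between the tissues at the top dose in the test of IAT minus liver. At RSG 280 the difference was -3.35 for Fabp4, -2.77 for Fabp5, -2.27 for Lpl, -0.73 for Cd36, -0.64 for Fabp2 and -0.73 for Fabp7. At S 280 it was -4.99 for Fabp4, -3.53 for Fabp3, -3.32 for Fabp5, -3.03 for Lpl, -1.82 for Fabp2 and -1.36 for Cd36, and 0.65 for Fabp7. The Fabp5 values rest on a liver pool at background: with normexp they were 0.114 (Fabp5 IAT minus liver RSG 280) and -0.205 (Fabp5 IAT minus liver S 280), neither called.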

How the results depend on the processing

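Leaving out saturated spots, averaging all probes of a gene and using the authors' value table changed no call of the 8 genes. The first 2 are weak tests, as the main probe was chosen in part for little saturation. Fabp1, Fabp3, Fabp5 and Fabp7 had 1 probe each, so averaging could not change them. The counts of genes called that moved were these. Liver RSG minus S at 28 µmol/kg, 1 gene, became 0 with normexp, with scan day as a random or a fixed block, and 2 with own groups only. With scan day as a fixed block the counts were 0 at 84 and 4 at 280 µmol/kg for liver RSG minus S, 0 for liver S 84 minus 28, 4 for liver S 280 minus 28, 1 for IAT RSG 84 minus 28 and 0 for IAT RSG 280 minus 28. Liver S 84 minus 28, 2 genes, became 1 with normexp or no filter. IAT RSG 84 minus 28, 0 genes, became 1 with the 90% filter or error weights. IAT RSG 280 minus 28, 2 genes, became 1 without a filter, with Cy3 only, with slide as a random block, with own groups only and on omitting the 2 mice that stand apart (an alternative chosen after seeing the data), and 4 with scan day as a random block, which also gave 1 for IAT RSG minus S at 84 and at 280 µmol/kg. With normexp the sign turned for Fabp5 IAT minus liver RSG 28 (0.058), Fabp5 IAT minus liver RSG 84 (0.271), Fabp5 IAT minus liver RSG 280 (0.114), Fabp5 IAT minus liver S 28 (0.215) and Fabp5 IAT minus liver S 84 (0.171). With Cy3 only it turned for Fabp1 Liver RSG 84 against pool (-0.045) and Fabp1 Liver RSG 280 against pool (-0.122). The normexp setting had an offset of 50 in both channels, which shrinks the ratios of a probe as dim as Fabp5 in liver. The cause of these turns was not tested.

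Equal replicate numbers did not meet the rule for pairing, as not every pair's r was over 0.1. The r of deviations ran from -0.523 to 0.687 in IAT (median 0.13, against -0.03 for unequal numbers) and from -0.291 to 0.516 in liver (median 0.102, against -0.027), and 10 of 36 and 16 of 36 samples were closest to their own number. Between IAT and liver of 1 treatment the median was 0.138, against -0.025. With the replicate block, liver S 84 minus 28 gave 1 gene and IAT RSG 84 minus 28 gave 1, and calls were gained for Fabp7 IAT minus liver RSG 84 (-0.475) and Fabp7 IAT minus liver S 28 (0.495).

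Leaving out 1 mouse gave 3 to 5 genes for IAT RSG 280 against the pool (fewest without mouse 1), 2 to 5 for IAT S 84 against the pool (fewer without mouse 2 or 4), 1 to 4 for IAT RSG 280 minus 28, 0 to 1 for IAT RSG 84 minus 28, 0 to 1 for IAT RSG minus S at 280 µmol/kg, 0 to 1 at 28 and 2 to 4 at 84 µmol/kg for liver RSG minus S, and 1 to 2 for liver S 84 minus 28. Slide could not be a fixed block, as no slide held 2 groups. Fabp5 in the untreated liver lay at background, so its fold changes there are bounds, given for the deposited background correction. The normexp ratios were smaller than the bounds, but with an offset of 50 in both channels they cannot test them.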
